A study of Arabidopsis thaliana with 26 samples.

Results

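The comparison of KNO3 with KCl 20 min after transfer rested on 4 of the 26 arrays of an Arabidopsis root time course. These were the 2 arrays labelled KNO3 at 20 min and the 2 labelled KCl at 20 min, chosen by their labels alone. Wild-type plants of ecotype Columbia were grown hydroponically for 14 days on ammonium succinate, without nitrate. They were kept without nitrogen in continuous light for 24 h and then moved to 1 mM KNO3 or to 1 mM KCl. Both groups consisted of roots of the same age that had gone through the same nitrogen removal. KCl supplied the potassium without the nitrate. The other arrays were 2 at time 0, before transfer, and 2 per salt at 3, 6, 9, 12 and 15 min. RNA came from whole roots, so fewer cells of a type and less RNA per cell cannot be told apart. The labels gave each array a replicate number and the study calls the arrays biological replicates, but the labels do not tie a number to a separate culture. All p-values therefore measure the spread between these arrays.

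Nitrate is both the main nitrogen source of most plants in aerated soil and a signal in its own right. Roots take it up through NRT transporters, reduce it to nitrite in the cytosol and to ammonium in plastids, and draw the electrons for the second step from NADPH of the oxidative pentose phosphate pathway. Nitrate also acts within minutes on transcription through NIN-like proteins, and among the genes known to respond are those of the GARP family HRS1 and HHO, which encode DNA-binding repressors of nitrogen and phosphate starvation genes.

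The ATH1 array reports each transcript through a probe set, several short DNA probes for the same transcript that MAS5 combines into 1 signal intensity. limma was applied to log2 signals of 22746 probe sets on the 18 arrays of time 0 and 9 to 20 min, so that 9 groups of 2 gave a common spread, and a probe set was called at a Benjamini-Hochberg adjusted p under 0.05. The number of arrays limits the precision. The 4 arrays at 20 min were alike in brightness, with median signals of 215 to 223, a correlation between replicates of 0.962 to 0.973 and hybridization spike-ins (bacterial transcripts added to the labelled sample) at a mean log2 signal of 9.81 to 9.93. The spike-ins lay at 9.68 to 10.2 on the arrays of time 0 and 9 min and at 10.3 to 10.9 on those of 12 and 15 min, so a level at 20 min was set against brighter spike-ins at 12 and 15 min. Replicates correlated at 0.968 to 0.971 at time 0 and 9 min, and less well, at 0.939 to 0.953, at 12 and 15 min. The fit nevertheless used 1 spread per probe set for all times, which limits the comparison of call counts between times. The 8 arrays of 3 and 6 min had spike-ins at 12.2 to 13.1 and were left out of the fit. Of the root cell type markers, 3 of 19 genes were measured. Here and below, a gene is called measured if the annotation used lists a probe set with that gene alone. A gene not measured in this sense can still be on the array. On the 4 arrays at 20 min the summed signal of these 3 markers was 1431 and 1912 in KNO3 and 2438 and 2131 in KCl. Most of the sum came from the root hair genes EXPA7 and EXPA18, which were lower in KNO3. The cortex marker CO2 went the other way, at 198 and 122 in KNO3 against 91.0 and 64.5 in KCl. None of the 3 was called. The 1 shoot marker measured of 9, RCA, had signals of 165 and 185 in KNO3 and 228 and 213 in KCl. RCA was brighter on KNO3 replicate 1 of 15 min (1582) and KNO3 replicate 2 of 12 min (726). Both arrays enter the common spread and the comparisons with 9 to 15 min.

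At 20 min, 234 probe sets differed between the salts at an adjusted p under 0.05 from limma, which was 1.03% of those tested. KNO3 was higher in 201 of them (0.884% of all probe sets) and lower in 33 (0.145%). The median log2 difference was 1.17 among the higher and -0.86 among the lower, against -0.06 over all probe sets. A difference of at least 1 on the log2 scale was reached by 126 of the 201 and by 12 of the 33. The salts did not overlap in any of the 234. Over all probe sets, both KNO3 arrays exceeded both KCl arrays in 16.8% and lay under both in 27.8%. The share of higher among the calls was 85.9%, and it was 67.5% when the 4 arrays were fitted alone (456 calls). In a model adapted from the methods it was 72.3% (325 calls). Leaving out 1 array gave fewer calls, which were 109 without KNO3 replicate 1, 127 without KNO3 replicate 2, 123 without KCl replicate 1 and 153 without KCl replicate 2. A gene was listed for 110 of the higher and 18 of the lower probe sets.

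**Figure D1:**
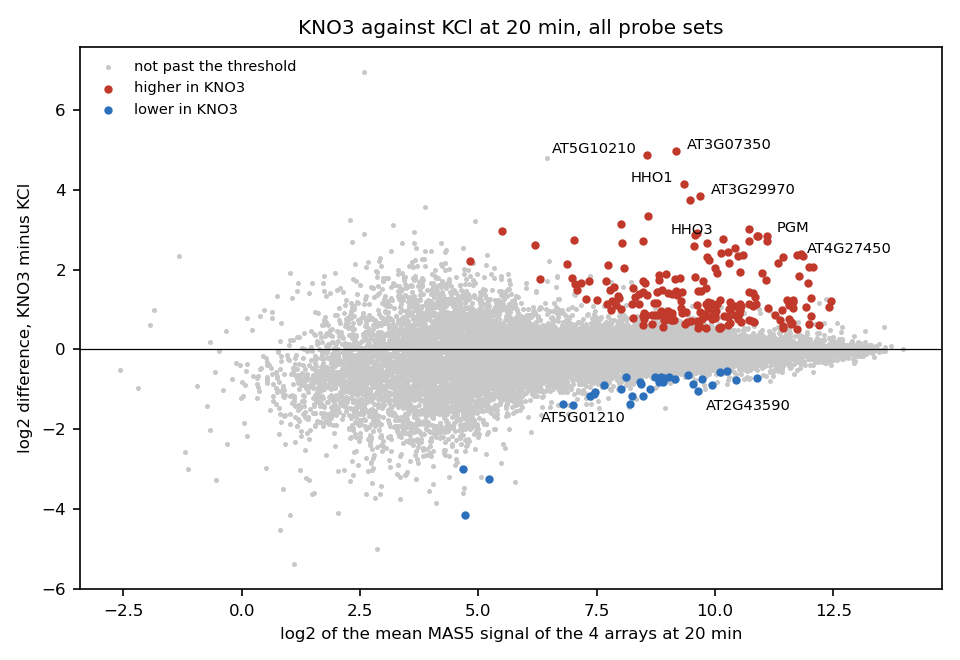
Log2 difference between KNO3 and KCl at 20 min (vertical axis) against the log2 of the mean MAS5 signal of the 4 arrays (horizontal axis), 1 point per probe set, with the 201 called higher in red, the 33 called lower in blue and all others in grey. The calls above 0 reach 4.96 (AT3G07350), and 3 of the 33 calls below 0 lie at -2 or lower, among them DL1D (-3.00).

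Among the regulators of the nitrate response, HHO1, HHO2 and HHO3 rose. The list held 41 genes, of which 6 were measured. All 6 lay above 0, as did 9387 of all 22746 probe sets, 3 of them were called higher (0.884% of all probe sets) and none lower, and their median log2 difference was 1.38 against -0.06 over all probe sets. HHO1 (AT3G25790) had signals of 1331 and 1126 in the KNO3 arrays, 66.4 and 72.5 in the KCl arrays and 57.4 and 99.7 at time 0. Both KNO3 arrays therefore lay far above every KCl and time 0 array. Its log2 difference was 4.14 (SE 0.26, adjusted p = 7.63e-08 from limma), equal to 17.6-fold. HHO3 (AT1G25550) had signals of 1985 and 2043 in KNO3 against 307 and 281 in KCl, a log2 difference of 2.78 (SE 0.15, adjusted p = 1.94e-08). HHO2 (AT1G68670) had 1175 and 1196 in KNO3 against 332 and 347 in KCl, a log2 difference of 1.8 (SE 0.13, adjusted p = 4.93e-07). In each of these 3 genes the salts were separated by much more than the gap between replicates, and leaving out any 1 of the 4 arrays kept the adjusted p at or under 4.94e-05. HHO5 (AT4G37180), at 119 and 144 in KNO3 against 61.2 and 75.0 in KCl, did not pass (log2 difference 0.95, adjusted p = 0.529 from limma). HHO6 (AT1G49560) and NRG2 (AT3G60320), which encodes a regulator acting with NLP7, had log2 differences of 0.07 and 0.20. The sign of HHO6 turned to -0.11 without KNO3 replicate 1, so no direction was measured for it.

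**Figure D2:**
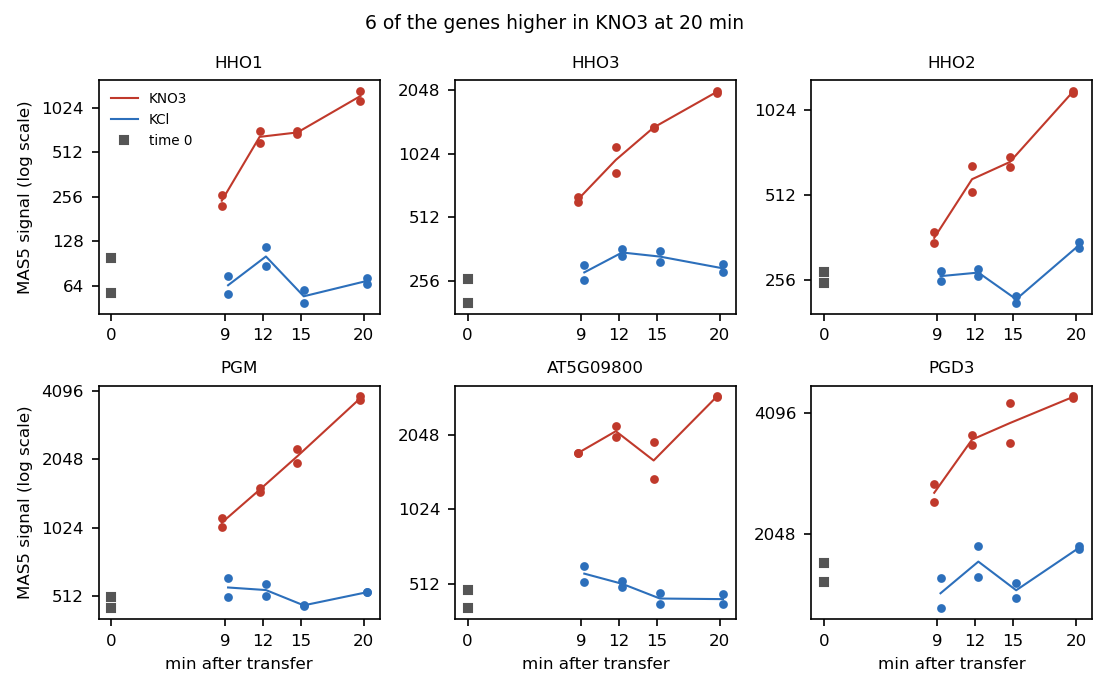
MAS5 signal on a log scale (vertical axis) against minutes after transfer (horizontal axis) for 6 genes called higher in KNO3 at 20 min, with 1 point per array, KNO3 in red, KCl in blue, time 0 as grey squares and lines through the geometric means of the 2 arrays. HHO1 reached 1331 and 1126 in KNO3 at 20 min, while its KCl arrays stayed near the time 0 signals of 57.4 and 99.7.

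The HHO genes had differed at the earlier times too, on other arrays. On the log2 scale HHO1 was higher in KNO3 by 1.89, 2.68 and 3.67 at 9, 12 and 15 min, each past the threshold in limma (adjusted p = 0.00208 at 9 min). HHO3 stood at 1.15, 1.46 and 2.03 at the same times, all called. HHO2 was at 0.45 at 9 min, which did not pass (adjusted p = 0.177), and at 1.1 and 1.62 at 12 and 15 min, which did. The difference at 20 min exceeded the mean of 9, 12 and 15 min by 1.39 for HHO1 (SE 0.30, adjusted p = 0.0324 from limma), by 1.23 for HHO3 (adjusted p = 0.00392) and by 0.75 for HHO2 (adjusted p = 0.0282). With 1 array left out, the highest adjusted p of this excess was 0.236 for HHO1, 0.0463 for HHO3 and 0.179 for HHO2, so of these 3 only HHO3 passed whichever array was missing.

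Of the genes for nitrate and nitrite reduction, those for plastid nitrite import rose. The list held 13 genes, 4 of which were measured by 5 probe sets, and 3 probe sets were called higher (0.884% of all probe sets), none lower. The structural genes NIA1, NIA2 and NIR1 were not analysed here. NITR2;1 (AT5G62720) and NITR2;2 (AT3G47980) encode HPP-family proteins that carry nitrite into plastids. NITR2;1 had signals of 256 and 238 in KNO3 and 71.3 and 77.7 in KCl, with 74.3 and 122 at time 0. Its log2 difference was 1.73 (SE 0.32, adjusted p = 0.00911 from limma). The first probe set of NITR2;2 read 705 and 683 in KNO3 against 273 and 222 in KCl, a log2 difference of 1.49 (SE 0.16, adjusted p = 6.12e-05). The second read 1360 and 1093 in KNO3 against 637 and 488 in KCl, a log2 difference of 1.13 (SE 0.25, adjusted p = 0.0346), so both probe sets of the gene pointed the same way. Leaving out any 1 of the 4 arrays ended the calls of NITR2;1 (adjusted p = 0.0664 to 0.134) and of the second NITR2;2 probe set (0.0881 to 0.41), while the first stayed at or under 0.00276. CNX6 (AT2G43760), for the molybdenum cofactor that nitrate reductase needs, and SIRB (AT1G50170), for the sirohaem of nitrite reductase, had log2 differences of 0.29 and -0.22 and did not pass (adjusted p = 0.645 and 0.718).

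Of the genes that supply reductant, the 2 that rose encode 6-phosphogluconate dehydrogenases, which make NADPH in the oxidative pentose phosphate pathway. Of 25 listed genes 4 were measured, 2 were called higher (0.884% of all probe sets) and none lower (0.145%). PGD3 (AT5G41670) had signals of 4459 and 4499 in KNO3, 1876 and 1907 in KCl and 1733 and 1551 at time 0, a log2 difference between the salts of 1.24 (SE 0.13, adjusted p = 3.01e-05 from limma). PGD1 (AT1G64190) was brighter still, at 7333 and 7424 in KNO3 against 3302 and 3776 in KCl, a log2 difference of 1.06 (SE 0.11, adjusted p = 3.84e-05). Both are plastid forms, and neither call was lost when 1 array was left out (highest adjusted p 0.00122 for PGD3 and 0.00225 for PGD1). PGD2 (AT3G02360), the third member of the family, read 5122 and 5735 in KNO3 against 5173 and 6011 in KCl, and the salts overlapped. TRA1 (AT1G12230), annotated as a transaldolase, had 1158 and 997 in KNO3 against 1343 and 1287 in KCl, a log2 difference of -0.29 that did not pass (adjusted p = 0.427). PGD3 and PGD1 had been called higher in KNO3 at 9, 12 and 15 min as well, with log2 differences of 0.83, 1.01 and 1.38 for PGD3 and of 0.57, 0.80 and 1.14 for PGD1. For these genes the value at 20 min differed from the mean of the earlier times by only 0.17 and 0.23, short of the threshold (adjusted p = 0.697 and 0.503).

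PGM (AT1G78050), which encodes a phosphoglycerate mutase, an enzyme family of lower glycolysis, had the smallest adjusted p of the named genes. Its signals were 3748 and 3892 in KNO3, 532 and 533 in KCl and 452 and 506 at time 0. Replicates differed by a few percent while the salts differed by a log2 value of 2.84 (SE 0.12, adjusted p = 1.18e-09 from limma), and without any 1 array the adjusted p stayed at or under 2.12e-07. Earlier differences of PGM were 0.95, 1.47 and 2.18 (9, 12 and 15 min), and 20 min exceeded their mean by 1.31 (SE 0.13, adjusted p = 0.000308). This excess of PGM was the only one among the named genes that also passed without an intensity trend (adjusted p = 0.0258). The KCl arrays of PGM at 20 min differed from KCl at 9 to 15 min by 0.03. CICDH (AT1G65930), for the cytosolic NADP-dependent isocitrate dehydrogenase, was the other measured gene of 18 for carbon skeletons and read 7810 and 7164 in KNO3 against 7229 and 8021 in KCl, with overlapping salts.

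CC-type glutaredoxins, small plant-specific thiol proteins of which several respond to nitrate, were measured for 17 of 21 listed genes, and 1 was called, higher in KNO3 (0.884% of all probe sets were). AT3G62930 had signals of 398 and 297 in KNO3 against 71.8 and 86.7 in KCl and 102 and 101 at time 0, a log2 difference of 2.12 (SE 0.32, adjusted p = 0.00182 from limma). It had been called at 9 min (1.51), 12 min (1.92) and 15 min (2.84) as well. Without KNO3 replicate 1 the adjusted p of AT3G62930 at 20 min was 0.0611. The median over the 17 was 0.07, with 9 above 0, and the rest ranged from -0.74 (AT3G62960) to 0.75 (AT4G15680, at signals of 10.1 to 24.8). GRX480 (AT1G28480), at 177 and 255 in KNO3 against 308 and 324 in KCl, did not pass (log2 difference -0.57, adjusted p = 0.48).

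The largest named rises were those of AT3G07350 and AT5G10210, for which no role is given here. AT3G07350 had signals of 1143 and 1102 in KNO3, 47.1 and 27.6 in KCl and 27.1 and 67.5 at time 0, a log2 difference of 4.96 (SE 0.52, adjusted p = 3.47e-05 from limma). AT5G10210 had 703 and 741 in KNO3, 49.97 and 12.0 in KCl and 11.1 and 42.0 at time 0, a log2 difference of 4.88 (SE 0.76, adjusted p = 0.00214). The KCl signals lay at or below the 25th percentile of the arrays at 20 min (48.5 to 60.0), so both sizes are imprecise, and AT5G10210 missed the threshold without KCl replicate 2 (adjusted p = 0.0584). At 15 min AT3G07350 had stood at 4.61 and AT5G10210 at 4.89.

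AT5G09800, AT1G14260 and AT5G04840 were among the large rises with KCl signals above the array medians. AT5G09800, which encodes a U-box protein of the kind that acts as a ubiquitin ligase, had signals of 2910 and 2937 in KNO3 against 465 and 421 in KCl, with 406 and 480 at time 0, a log2 difference of 2.72 (SE 0.14, adjusted p = 1.18e-08 from limma). AT1G14260, for a RING finger protein, had 1600 and 1688 in KNO3 against 438 and 361 in KCl, a log2 difference of 2.05 (SE 0.16, adjusted p = 7.78e-07). AT5G04840, for a bZIP protein, had 2142 and 2063 in KNO3 against 406 and 368 in KCl, a log2 difference of 2.44 (SE 0.19, adjusted p = 1.21e-06). None of the 3 differed between KCl at 20 min and time 0 past the threshold. With 1 array left out, the adjusted p stayed at or under 2.01e-06 for AT5G09800, 6.23e-05 for AT1G14260 and 0.000105 for AT5G04840.

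AT4G36010, of the thaumatin family of pathogenesis-related proteins, had 2217 and 2440 in KNO3 against 377 and 423 in KCl, a log2 difference of 2.54 (SE 0.18, adjusted p = 4.12e-07 from limma). At 9 min it had stood at 0.43 (adjusted p = 0.4), and 20 min exceeded the mean of the earlier times by 1.58 (adjusted p = 0.00247). AT5G19120, annotated as an aspartic protease of the pepsin type, had 1367 and 1646 in KNO3 against 299 and 300 in KCl, a log2 difference of 2.33 (SE 0.21, adjusted p = 6.43e-06). Its KCl arrays also lay above time 0 (116 and 124), by 1.31 (adjusted p = 0.00728 from limma). The salts had been as far apart at 12 min (2.45) and 15 min (2.39).

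AT1G49000, for which no role is given here either, had 387 and 531 in KNO3 and 29.0 and 92.0 in KCl, a log2 difference of 3.13 (SE 0.65, adjusted p = 0.0239 from limma). AT5G52050, which encodes the efflux carrier DTX50 of the MATE family, had 233 and 209 in KNO3, 20.9 and 52.2 in KCl and 6.998 and 9.72 at time 0 (log2 difference 2.74, adjusted p = 0.0345). Both rested on dim KCl signals. The call of AT1G49000 was lost without KNO3 replicate 1 (0.134), KNO3 replicate 2 (0.209) or KCl replicate 1 (0.468), and that of AT5G52050 without the same arrays (0.298, 0.181 and 0.512). Further named genes were at higher signals. AT2G27830 had 1206 and 1423 in KNO3 against 479 and 333 in KCl (log2 difference 1.71, adjusted p = 0.00014). BAT1 (AT4G31910), for an acyltransferase that acts on brassinosteroids, had 4310 and 4566 in KNO3 against 2032 and 1887 in KCl (log2 difference 1.18, adjusted p = 3.84e-05). AT1G64370, AT1G27900 and AT1G52060 lay between -0.34 and 0.23 and did not pass, although AT1G64370 had been called higher at 12 min (0.74) and 9 min (0.86).

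The 201 probe sets called higher at 20 min were mostly above 0 at the earlier times, on arrays that did not enter the difference at 20 min but did enter the common spread of the fit. KNO3 was above KCl in 155 of them at 9 min, 173 at 12 min and 169 at 15 min, against 42.1%, 50.7% and 50.8% of all probe sets at these times. They were called higher in 43 cases at 9 min (0.435% of all probe sets were), in 73 at 12 min (0.892%) and in 91 at 15 min (1.09%). Altogether 36 were called at all 3 times and 95 at none. Their median log2 difference at 9, 12 and 15 min was 0.29, 0.54 and 0.56. The 1.17 at 20 min is the value that chose them. Over the same 201, the median of KNO3 at 20 min against time 0 was 1.04 and that of KCl at 20 min against time 0 was -0.05, 2 comparisons that share the time 0 arrays with each other and the 20 min arrays with the calls. Of the 33 called lower, KNO3 was below KCl in 15 at 9 min, 26 at 12 min and 16 at 15 min, and 1, 3 and 3 were called lower at these times, where 0.255%, 0.805% and 0.897% of all probe sets were.

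Several of the largest rises at 20 min had the opposite sign before it. AT3G29970, AT5G10040, AT2G17850, AT4G27450, AT1G19530 and AT3G11930 were among the 20 largest named rises. None of them differed between KNO3 at 20 min and time 0 past the threshold. In each, KCl lay below time 0 past it, as 0.325% of all probe sets did. The 6 were picked for this shape and from rises that use the same KCl arrays, so this is a description. The first 5 are on a list of 38 genes known to be induced by low oxygen, drawn up after these values were seen, and AT3G11930 encodes a universal stress protein. AT3G29970 had signals of 1777 and 1308 in KNO3, 106 and 106 in KCl and 2879 and 2161 at time 0. Its log2 difference between the salts was 3.85 (SE 0.81, adjusted p = 0.0277 from limma). Against time 0 the log2 difference was -0.71 for KNO3 and -4.56 for KCl. At 9, 12 and 15 min the same gene had been lower in KNO3, by log2 differences of -2.25, -1.28 and -2.52, none past the threshold. The KNO3 arrays of 15 min disagreed, at 293 and 5075, against 5300 and 9275 in KCl.

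AT4G27450 was the brightest of these 6, with 6086 and 5240 in KNO3, 966 and 1224 in KCl and 7947 and 6600 at time 0 (log2 difference between the salts 2.38, SE 0.34, adjusted p = 0.000892 from limma). AT3G11930 read 4639 and 3789 in KNO3, 869 and 990 in KCl and 5370 and 4639 at time 0 (2.18, adjusted p = 0.0196). AT1G19530 read 2938 and 2204 in KNO3, 425 and 567 in KCl and 5395 and 3908 at time 0 (2.37, adjusted p = 0.00491). In each of the 3 both KCl arrays lay below every KNO3 array of 20 min and every time 0 array. AT5G10040, at 929 and 475 in KNO3 against 71.3 and 59.8 in KCl, had a log2 difference of 3.35 (adjusted p = 0.0153). AT2G17850, for a rhodanese-domain protein, had 783 and 458 in KNO3 against 96.8 and 87.2 in KCl and 1929 and 2198 at time 0, a difference of 2.71 (adjusted p = 0.0239). AT4G39675, of the same shape but not on the list, had 505 and 401 in KNO3 against 82.9 and 61.5 in KCl and 849 and 643 at time 0, a difference of 2.66 (adjusted p = 0.00763).

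Except for AT4G27450, whose adjusted p stayed at or under 0.0296, these calls did not hold without each array. With 1 array left out the adjusted p reached 0.258 for AT3G29970, 0.247 for AT5G10040, 0.327 for AT2G17850 and 0.121 for AT4G39675, in each case without KNO3 replicate 1. It reached 0.238 for AT3G11930 and 0.114 for AT1G19530 without KCl replicate 1. Of the 2 KNO3 arrays, replicate 1 was the higher one in all of these genes. The 172 calls of KCl at 20 min against time 0 became 30 without KCl replicate 1 and 39 without KCl replicate 2. With KCl at 20 min on 2 arrays and no later time, a change with time in KCl roots and a difference particular to those 2 samples cannot be told apart.

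**Figure D3:**
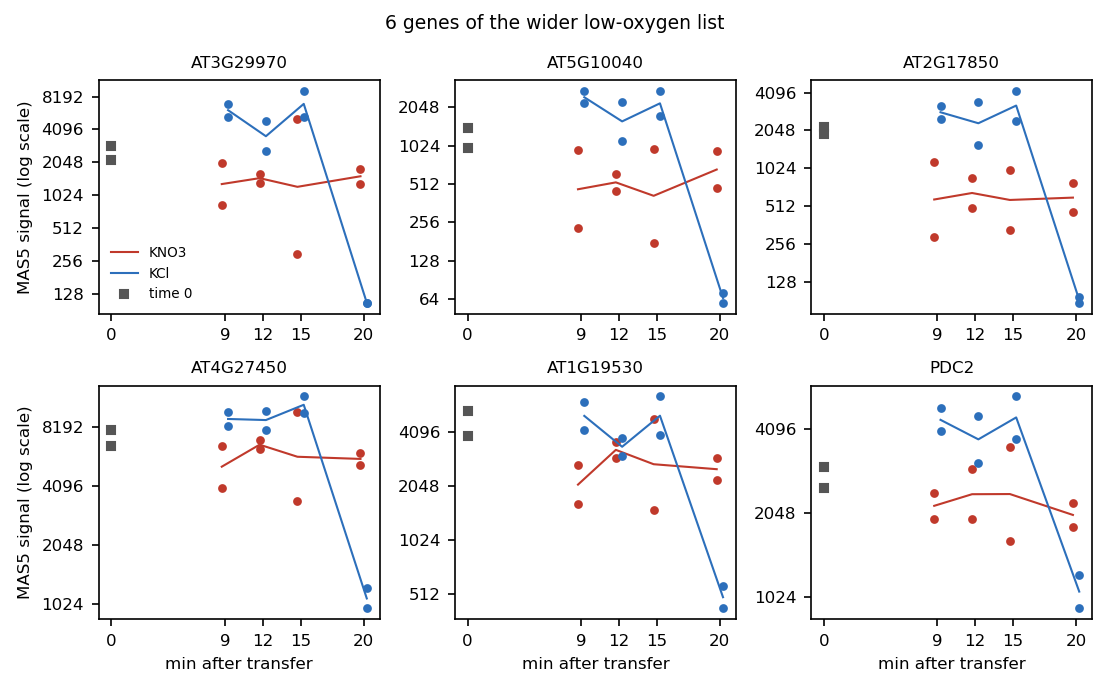
MAS5 signal on a log scale (vertical axis) against minutes after transfer (horizontal axis) for 6 genes of the wider low-oxygen list, with 1 point per array, KNO3 in red, KCl in blue, time 0 as grey squares and lines through the geometric means of the 2 arrays. In AT3G29970 the KCl arrays at 20 min (106 and 106) lie below the KNO3 arrays of that time (1777 and 1308), whereas from 9 to 15 min the KCl lines lie above the KNO3 lines.

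Over the wider low-oxygen list, 20 of 38 genes were measured. The list was drawn up after these values were seen and includes the genes picked above. Its counts are therefore a description, and the shares over all probe sets beside them are no test of the list. At 20 min 5 were called higher in KNO3 (0.884% of all probe sets were) and none lower, 16 lay above 0, and the median log2 difference was 0.80. The medians of KNO3 against KCl had been -1.34 at 9 min, -0.78 at 12 min and -1.57 at 15 min. All 20 lay below 0 at 15 min and 7 were called lower (0.897% of all probe sets). The 2 KNO3 arrays of 15 min were far apart, however. Their mean log2 signals over the 20 genes were 8.50 and 9.56, against 10.2 and 10.9 in KCl. KCl at 20 min lay below KCl at 9 to 15 min past the threshold in 18 of the 20 (2.06% of all probe sets), with a median of -1.85, while KNO3 at 20 min differed from KNO3 at 9 to 15 min by a median of -0.01. The difference between 20 min and 9 to 15 min itself passed for 13 of the 20 (0.651%). Averaged over the 20 genes, the log2 signal was 9.27 and 9.07 on the KNO3 arrays at 20 min and 8.02 and 8.02 on the KCl arrays, against 10.1 and 9.83 at time 0. On the arrays of 3 and 6 min, which had brighter spike-ins, it was not tested. It read 10.1 and 10.15 in KNO3 and 10.09 and 10.34 in KCl at 3 min. At 6 min it was below time 0 in both salts, at 8.89 and 8.21 in KNO3 and 9.09 and 9.34 in KCl. The shorter low-oxygen list held 15 genes, of which 3 were measured and none was called (2 at an unadjusted p under 0.05). These 3 are also among the 20 of the wider list. PDC2 (AT5G54960), for a pyruvate decarboxylase of ethanol fermentation, had 2225 and 1822 in KNO3 against 933 and 1232 in KCl (log2 difference 0.91, adjusted p = 0.268 from limma). LDH1 (AT4G17260), for lactate dehydrogenase, had 2349 and 2018 in KNO3 against 1418 and 1503 in KCl (0.58, adjusted p = 0.379). HRA1 (AT3G10040), for a repressor of the low-oxygen response, overlapped between the salts at dim signals. Without the wider list, and so without its 5 called members, the whole comparison at 20 min gave 229 calls. Nothing is read from that count.

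Among probe sets with 1 gene listed, the 10 largest falls with a signal at or above the median in KCl had log2 differences of -0.82 to -1.35. In 4 of the 10 KCl stood above time 0 past the threshold, as 0.431% of all probe sets did. The 10 were chosen on the same KCl arrays, so nothing is read from that count. AT5G01210, for an acyltransferase of the HXXXD type, had signals of 148 and 182 in KNO3, 413 and 428 in KCl and 290 and 474 at time 0, a log2 difference of -1.35 (SE 0.25, adjusted p = 0.00953 from limma). Here KNO3 lay below time 0 (-1.17, adjusted p = 0.0217) and KCl near it (0.18). AT5G62280 had 238 and 203 in KNO3, 512 and 471 in KCl and 174 and 138 at time 0, a log2 difference of -1.16 (SE 0.21, adjusted p = 0.0073). In this gene KNO3 stood 0.51 above time 0, which did not pass, and KCl stood 1.67 above it (adjusted p = 0.00106). AT2G28400 had the same shape, at 168 and 208 in KNO3, 391 and 450 in KCl and 154 and 232 at time 0 (-1.16, adjusted p = 0.00332). AT2G43590, of the chitinase family, had 386 and 665 in KNO3, 1191 and 925 in KCl and 400 and 428 at time 0 (-1.05, adjusted p = 0.0443). AT4G29690 had 223 and 307 in KNO3 against 464 and 584 in KCl and 223 and 253 at time 0 (-0.99, adjusted p = 0.0296). AT5G62280, AT2G28400, AT2G43590 and AT4G29690 were the 4 that passed above time 0 in KCl, and none of them passed in KNO3.

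AT2G47440, for a protein with a DnaJ domain, had 532 and 514 in KNO3, 981 and 921 in KCl and 695 and 791 at time 0, so time 0 lay between the salts (-0.86, adjusted p = 0.000892 from limma). It was the only one of these 10 falls that kept its call without each array (highest adjusted p 0.0232). AT4G37240 had 160 and 186 in KNO3 against 361 and 321 in KCl (-0.98, adjusted p = 0.0372), and it alone among the 10 had been called lower at 9, 12 and 15 min too, at -1.29, -1.15 and -1.36. The remaining 3, AT5G04120, AT1G72240 and AT5G19340, had log2 differences of -0.89, -0.86 and -0.82. With 1 array left out, the adjusted p of the other 9 rose to between 0.0907 (AT2G28400) and 0.656 (AT2G43590), in AT2G28400, AT2G43590 and AT5G01210 (0.175) without KNO3 replicate 1.

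**Figure D4:**
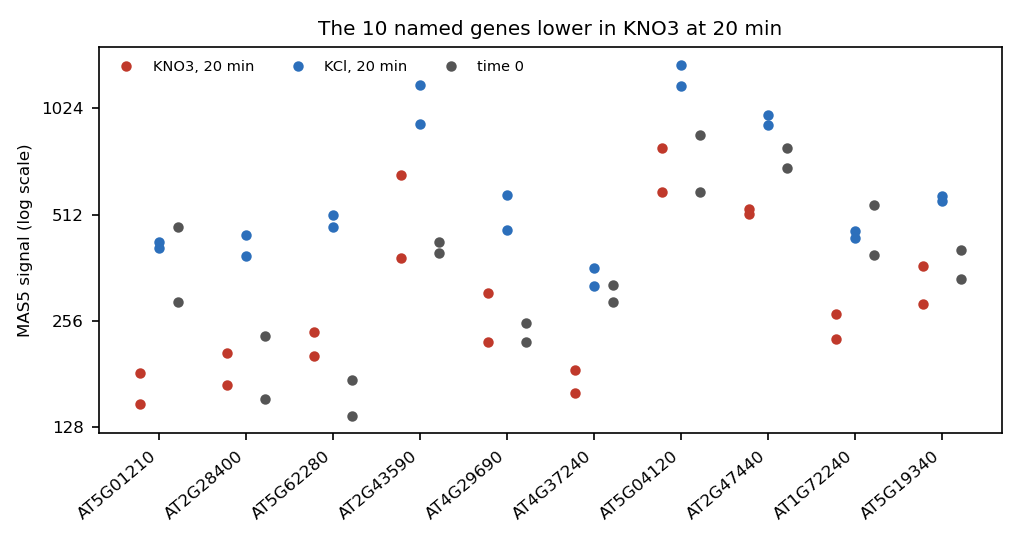
MAS5 signal on a log scale (vertical axis) of the 10 named genes lower in KNO3 at 20 min (horizontal axis), with 1 point per array for KNO3 at 20 min (red), KCl at 20 min (blue) and time 0 (grey). In AT5G62280 the KCl arrays (512 and 471) lie above both the KNO3 arrays (238 and 203) and time 0 (174 and 138).

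No member of the remaining lists was called at 20 min by limma, and those with an unadjusted p under 0.05 were 2 auxin, 2 touch and wounding and 3 root cell type genes, against 2049 of all 22746 probe sets. For nitrate transport 1 of 20 genes was measured, NRT2.5 (AT1G12940), a high-affinity transporter of nitrogen-starved roots, at 2470 and 2738 in KNO3 against 1929 and 1985 in KCl (log2 difference 0.41, adjusted p = 0.603 from limma). NRT2.1 and NRT1.1 were not analysed here. For ammonium and amides 2 of 22 genes were measured, both asparaginases. ASPGB1 (AT3G16150) had 1480 and 1330 in KNO3, 1263 and 1269 in KCl and 789 and 772 at time 0, so that both salts lay above time 0 and the difference between them (0.15) did not pass. At 9, 12 and 15 min it had been called higher in KNO3 (1.16, 0.77 and 1.13), and 20 min fell short of their mean by -0.88 on the log2 scale (adjusted p = 0.013). Its KCl arrays at 20 min were above KCl at 9 to 15 min by 0.89 (adjusted p = 0.000367), and its KNO3 arrays differed from KNO3 at 9 to 15 min by less than 0.05.

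Auxin genes were measured for 6 of 25, with 5 below 0 and a median of -0.30. GH3.1 (AT2G14960), which encodes an auxin-conjugating enzyme, had 53.8 and 85.3 in KNO3 against 166 and 117 in KCl (log2 difference -1.04, adjusted p = 0.338 from limma), and GH3.3 lay at signals too dim for a size. The 2 cytokinin genes measured of 20, ARR15 and ARR16, overlapped between the salts at signals near the 25th percentile. For touch and wounding 4 of 16 were measured, with 2 above 0 and a median of 0.13. ZAT10 (AT1G27730), for a zinc finger repressor, came nearest to the threshold with 1297 and 1403 in KNO3 against 878 and 905 in KCl (0.60, adjusted p = 0.077). WRKY6 and WRKY53 lay below 0, at -0.41 and -0.32 (adjusted p = 0.376 and 0.644 from limma). Root hair expansins EXPA7 (AT1G12560) and EXPA18 (AT1G62980) had log2 differences of -0.60 and -0.54 (adjusted p = 0.201 and 0.245), and CO2 (AT1G62500), a cortex marker, had one of 1.02 (adjusted p = 0.0959). CO2 read 198 and 122 in KNO3, 91.0 and 64.5 in KCl and 252 and 224 at time 0, and it passed with quantile normalization (adjusted p = 0.0411). CO2 also passed with a replicate block (0.0347) and above the 40th percentile of signal (0.0407). It did not pass without trend (0.158), with 26 arrays (0.264), with the 4 arrays alone (0.168) or with 32 added (0.128). Nor did it pass with the 10 arrays of time 0, 9 and 20 min (0.0814). With 1 array left out its log2 difference ranged from 0.67 to 1.37. The part of the cell type markers in the other differences was not tested.

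**Figure D5:**
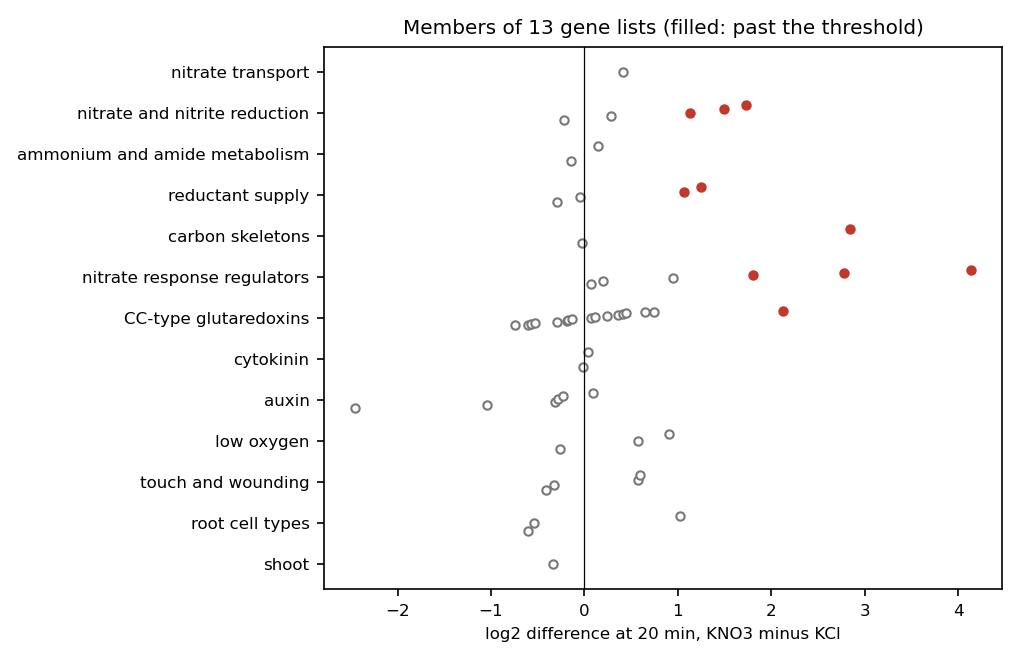
Log2 difference between KNO3 and KCl at 20 min (horizontal axis) of the measured members of 13 gene lists (vertical axis), 1 point per probe set, filled where the adjusted p was under 0.05. The filled points are HHO1, HHO3 and HHO2, 3 nitrite transporter probe sets, PGD3, PGD1, PGM and AT3G62930, all above 0.

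The last comparison asked whether the difference between the salts at 20 min was itself unlike that at 9 to 15 min. The change passed for 251 probe sets (1.1%), upward for 148 and downward for 103. Among the 148, the median difference between the salts was 0.87 at 20 min and -0.46, -0.18 and -0.53 at 9, 12 and 15 min. For these, the median of KNO3 at 20 min against KNO3 at 9 to 15 min was 0.35 and that of KCl against KCl was -0.64. Among the 103 the same medians were -0.23 for KNO3 and 0.78 for KCl. All these comparisons share the 20 min arrays. Counted over all probe sets, KNO3 at 20 min differed from KNO3 at 9 to 15 min in 113 (0.497%) and KCl at 20 min from KCl at 9 to 15 min in 991 (4.36%). These counts depended on single arrays and on the intensity trend. The 251 became 23 without KNO3 replicate 1, 85 without KNO3 replicate 2, 32 without KCl replicate 1, 74 without KCl replicate 2 and 12 without the trend. The 991 became 97 without KCl replicate 1 and 268 without KCl replicate 2, and the 113 became 17 without KNO3 replicate 1 and 21 without KNO3 replicate 2. Set against 15 min alone, the nearest time, 186 probe sets passed (0.818%), 99 upward and 87 downward.

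Among probe sets with 1 gene listed, the largest upward changes by this test were those of AT3G29970 (5.86), AT5G10040 (5.48), AT2G17850 (4.92), AT1G33055 (3.90) and AT4G39675 (3.89). AT1G33055, at 269 and 246 in KNO3 against 71.5 and 71.6 in KCl and 697 and 312 at time 0, was not called at 20 min itself (log2 difference 1.85, adjusted p = 0.12 from limma). Among the same probe sets, the largest downward changes with a measurable signal were those of AT2G39040 (-2.33) and AT1G14550 (-1.90), 2 peroxidase genes, and of AT1G19900 (-2.17). AT1G14550 read 81.7 and 119 in KNO3 against 309 and 237 in KCl, and AT2G39040 read 68.9 and 120 in KNO3 against 208 and 266 in KCl. YAB5 and DL1D, with changes of -3.34 and -2.96, had KNO3 signals of 4.44 to 6.97, below the 25th percentile of every array at 20 min, so their sizes are not precise. DL1D was also called at 20 min (log2 difference -3.00, adjusted p = 0.0126), and leaving out any 1 of the 4 arrays ended that call (0.0518 to 0.189).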

How the data were processed

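Roots were measured on 26 ATH1 arrays. The authors deposited MAS5 signal intensity on a linear scale, 1 value per probe set and array, and log2 was taken here of the deposited intensity. The methods state a target median of 150, but the trimmed mean (2% off each end) of every array is 500. Of 22810 probe sets, 64 controls were left out. Names came from the platform annotation (13513 probe sets with 1 gene, 503 with several, 8730 with none) and the TAIR10.1 gene table (13436 with a locus tag). Names such as HHO1, NITR2;1 and PGD3 were given to locus tags by the gene lists.

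limma 3.58.1 in R 4.3.3 (lmFit, eBayes with intensity trend) fitted 18 arrays in 9 groups, with 9 residual and 6.78 prior degrees of freedom. The fit was first tested on simulated data. Values below 1 (1397) were kept. Arrays have no read depth, and their number limits the precision. Lists were described by counts and medians, with no set test. Of 264 listed genes, 55 were measured, that is, had a probe set with 1 gene in the annotation used. The others can still be on the array.

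The comparison, the lists and the rules were chosen with earlier results of these data known. Named genes were probe sets with 1 gene: the 20 largest rises and 10 largest falls called at 20 min, with non-overlapping salts and a mean at or above the median signal in the brighter salt; called list members and the 4 brightest others per list; the 5 largest changes of each sign between 20 min and 9 to 15 min; and genes the paper names. The wider low-oxygen list, and singled-out list members beyond these, were chosen after values were seen. The promoter description was not run.

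Alternatives were no trend, all 26 arrays, the 4 arrays alone, quantile normalization, only probe sets above the 40th percentile of signal, 32 added before log2, a replicate block and each array left out. A further one was an ANOVA and linear model adapted from the methods, on linear signals (first step at p under 0.01). Its first step left out the time 0 arrays. Its second step tested KNO3 against KCl at 20 min, whereas the methods call the interaction with nitrate from a time 0 baseline. The 10 arrays of time 0, 9 and 20 min, 20 min against 9 min alone, and the comparison without the wider low-oxygen list were added after seeing the data.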

Additional observations from a re-analysis of the deposited data

Results flagged for a closer look

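In 33 named probe sets the difference between KNO3 and KCl at 20 min was unlike the mean difference at 9 to 15 min, by an adjusted p under 0.05 for that change in limma. Numbers in parentheses are the change on the log2 scale. Of these, 7 passed when any 1 of the 4 arrays at 20 min was left out and 1 passed without an intensity trend. In a comparison with only 9 min, added once the data had been seen, 31 passed and all 33 kept their sign. That comparison reused the arrays of 20 min and of 9 min that had chosen the 33. It is therefore no separate check, and nothing is read from it.

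The change was upward, with lower KNO3 than KCl at 9 to 15 min on average, for AT3G29970 (5.86), AT5G10040 (5.48), AT2G17850 (4.92), AT1G33055 (3.90), AT4G39675 (3.89), AT1G19530 (3.12), AT4G27450 (3.08), AT3G11930 (2.88), CML38 (1.88), PDC2 (1.77) and LDH1 (1.29). In these genes KCl at 20 min lay below KCl at 9 to 15 min past the threshold, and KNO3 did not pass against its own 9 to 15 min. A change with time in KCl roots and a difference particular to the 2 KCl samples of 20 min cannot be told apart.

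The change was upward from a KNO3 level that was already above KCl for AT4G36010 (1.58), HHO1 (1.39), PGM (1.31), AT5G04840 (1.29), HHO3 (1.23), AT1G14260 (1.15), AT5G09800 (0.88), the first NITR2;2 probe set (0.84) and HHO2 (0.75). For these genes KNO3 at 20 min lay above KNO3 at 9 to 15 min past the threshold.

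The change was downward for TRA1 (-0.61), AT2G47440 (-0.67), ASPGB1 (-0.88), AT5G04120 (-1.16), AT5G62280 (-1.19), AT4G29690 (-1.32), AT2G43590 (-1.44), AT5G01210 (-1.82), AT1G14550 (-1.90), AT1G19900 (-2.17), AT2G39040 (-2.33), DL1D (-2.96) and YAB5 (-3.34). ASPGB1 had been higher in KNO3 before 20 min and was not called there, and TRA1 did not pass between the salts at any time from 9 to 20 min.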

How the results depend on the processing

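At 20 min the 234 calls became 456 with the 4 arrays alone and 385 with the 10 arrays of time 0, 9 and 20 min (71.7% higher), and 109 to 153 with 1 array left out. Other settings gave 161 to 259 and the model adapted from the methods 325, of which 186 were among the 234. The 251 changes between 20 min and 9 to 15 min became 12 without trend, 144 with 26 arrays, 404 above the 40th percentile, 555 against 9 min alone and 23 to 85 with 1 array left out. The 186 against 15 min became 14 without trend, 105 with 26 arrays and 15 to 64. Against time 0, the 351 of KNO3 became 223 without trend and 164 to 183, and the 172 of KCl became 16 without trend, 100 with 26 arrays and 30 to 39. Against 9 to 15 min, the 113 of KNO3 became 34 without trend, 69 with 26 arrays, 186 above the 40th percentile and 17 to 21, and the 991 of KCl became 364 without trend, 498 with 26 arrays and 97 to 268, with 35.1% and 38.8% higher in place of 52.8%. Fewer arrays entered the settings that leave 1 out, and otherwise the cause was not tested.

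Of 39 named probe sets called at 20 min, 15 were called in all 13 alternatives and 17 whichever array was left out. Without trend 23 were called. Signs turned only in genes not called. With 1 array left out the log2 difference ranged across 0 for IAA29 (-0.22 to 0.40), PGD2 (-0.15 to 0.067), HRA1 (-0.75 to 0.23), AT1G27900 (-0.22 to 0.024), HHO6 (-0.11 to 0.26), CICDH (-0.10 to 0.049), ARR15 (-0.17 to 0.13) and ARR16 (-0.30 to 0.38), and ARR15 was 0.17 with quantile normalization.

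Over all probe sets, no pairing of the arrays by replicate number was seen. Deviations of same-numbered arrays correlated at -0.0708 to 0.0626 over 36 pairs of groups (KNO3 with KCl at 20 min 0.0246). Pairing in single genes was not tested. With the replicate block there were 232 calls at 20 min, 238 changes against 9 to 15 min and 176 against 15 min, 349 and 161 against time 0 in KNO3 and KCl, and 117 and 978 against 9 to 15 min. Signals under the 25th percentile limit the size of a difference.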
